A study of Homo sapiens with 5 samples.

Results

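The mRNAs of the CDC-like kinases CLK1, CLK2, CLK3 and CLK4 were followed through RNA immunoprecipitation sequencing (RIP-seq) of PSF in LTAD cells, a human prostate cancer cell line. They were taken by their gene symbols, which matched 4 of the 25702 genes in the count table. PSF is the nuclear RNA-binding protein encoded by SFPQ. All cells were kept in medium without phenol red that held charcoal-treated serum, which is poor in androgens. They received either DMSO vehicle or 5 µM of No.10-3, a small molecule whose structure is not given in the labels. The libraries are 2 inputs (1 from vehicle cells, 1 from No.10-3 cells), 1 PSF-RIP from vehicle cells and 2 PSF-RIP from No.10-3 cells (replicates 1 and 2). No source used here says whether the No.10-3 pair came from separate cultures, so p-values measure only the spread between these libraries, which may be technical. A comparison of the PSF-RIP libraries with the inputs pools vehicle and No.10-3 on both sides. The spread within each side, and the SDs and SEs drawn from it, therefore also include the treatment. The names of the input columns do not tell vehicle from No.10-3, so both inputs together serve as 1 reference and are named here by depth, as the deeper and the shallower input. No control immunoprecipitation is among the samples. A ratio of PSF-RIP over input therefore measures representation in the immunoprecipitate and does not separate PSF binding from nonspecific recovery.

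CLKs are dual-specificity kinases that phosphorylate the arginine- and serine-rich (RS) domains of SR proteins and so move these splicing factors out of nuclear speckles. The kinases also control splicing of their own transcripts. CLK1 and CLK4 are close paralogs whose transcripts are known to keep detained introns, which hold polyadenylated RNA in the nucleus until the introns are spliced out. The deposited table counts reads per gene, so reads from a detained intron, if counted, cannot be told apart from exonic reads. In the table CLK1 (Entrez 1195) has a length of 3794 bases, CLK2 (Entrez 1196) 2137, CLK3 (Entrez 1198) 2751 and CLK4 (Entrez 57396) 2507. The genes lie on chromosomes 2, 1, 15 and 5 in the same order.

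The inputs differed from the immunoprecipitates in kind as well as in depth. Totals were 4010376 and 3083063 counts in the inputs and 1519362 to 3368252 in the PSF-RIP libraries. In the inputs, 51.7% and 55.0% of counts lay in 5 abundant noncoding RNAs (RN7SK, RPPH1, RMRP, RN7SL1 and RN7SL2), against 2.63% to 7.81% in PSF-RIP. Mitochondrially encoded genes took 24.4% to 26.3% of input counts and 6.91% to 12.2% of PSF-RIP counts. Nuclear protein-coding genes thus shared 15.9% to 16.4% of input counts and 73.6% to 82.1% of PSF-RIP counts. Levels are therefore given as scaled CPM, that is, CPM computed on the library total times edgeR's TMM factor, which ranged from 0.365 in the shallower input to 2.06 in No.10-3 replicate 2. The prostate markers KLK2 and HOXB13 were above 0 in every library, at 124 to 465 and 87.6 to 218 scaled CPM, as were the luminal keratin genes KRT8, at 69.5 to 146, and KRT18, at 27.0 to 94.7. Of 8 markers of other cells, 2 to 3 were above 0 in each library, with sums of 26.7 to 28.3 in input and 45.8 to 62.2 in PSF-RIP, and PTPRC, KRT5 and TP63 were at 0 in all 5 libraries. COL1A1, the 1 called by the test below as higher in PSF-RIP, stood at 7.50 ± 3.06 scaled CPM in input (SD, n = 2) and 30.7 ± 7.58 in PSF-RIP (SD, n = 3), and its part in the results was not tested.

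PSF-RIP held more CLK3 mRNA than input, and CLK3 was the member that passed the test. CLK2 and CLK1 were also higher in each of the 3 PSF-RIP libraries than in both inputs, by less than the test could call, and CLK4 lay near the level of input. The test was edgeR's quasi-likelihood test on 13321 genes averaging 1 CPM or more, with Benjamini-Hochberg adjustment over all of them and a threshold of 0.05. It called 20.4% of the tested genes, 10.0% as higher in PSF-RIP and 10.4% as lower. All PSF-RIP libraries lay above both inputs for 30.1% of the tested genes and below both for 25.1%. The 3 of 4 members above both inputs, and the 1 of 4 called, are to be read against these shares.

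CLK3 had 21 counts in the deeper input and 24 in the shallower, 215 in vehicle PSF-RIP, and 103 and 208 in No.10-3 replicates 1 and 2. These gave scaled CPM of 13.5 and 21.3 in the inputs, 51.2 with vehicle, and 38.1 and 30.0 with No.10-3. The lowest PSF-RIP library lay 1.41-fold above the higher input, and the groups did not overlap. The mean was 17.4 ± 5.53 in input (SD, n = 2) and 39.8 ± 10.7 in PSF-RIP (SD, n = 3). The log2 ratio was 1.21 (SE 0.41, adjusted p = 0.0386 by edgeR), a 2.31-fold difference, higher in 3 of 3 PSF-RIP libraries. The call is narrow: DESeq2 gave a log2 ratio of 1.17 with an adjusted p of 0.0511, and edgeR without the vehicle library gave 0.97 with 0.139. In these settings 2382 of 13321 and 1405 of 13149 tested genes were called. It was also lost without No.10-3 replicate 1 (1.24 and 0.0674), beside 1675 of 13210 genes called. With 1 input left it was lost as well, at a log2 ratio of 0.90 without the deeper and 1.56 without the shallower. Fewer of all tested genes were called there too. With library totals alone the adjusted p was 1.92e-06 by edgeR, beside 11662 of 13321 genes called. In the RefSeq table, CLK3 overlaps CLK3-AS1 and CLK4 overlaps RN7SKP70, neither with a row in the count table, and the strand setting of the counting is not given in the sources used here.

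CLK2 had 50 and 20 counts in the deeper and shallower inputs, 270 with vehicle in PSF-RIP, and 121 and 309 in No.10-3 replicates 1 and 2. In scaled CPM the inputs stood at 32.2 and 17.8, vehicle PSF-RIP at 64.4, and the No.10-3 replicates at 44.8 and 44.6. The No.10-3 pair was nearly identical, while the inputs lay 1.81-fold apart (95% exact interval 1.06 to 3.21, counting error only). The log2 ratio of PSF-RIP over input was 1.02 (SE 0.39, adjusted p = 0.0636 by edgeR), and all 3 PSF-RIP libraries stood above both inputs. This value lay just above the threshold and passed it in 5 of 14 alternatives. Among these was the scale of library totals alone (adjusted p = 2.67e-06 by edgeR), where 11662 of 13321 tested genes were called. It also passed with small and mitochondrial RNAs left out (3077 of 13745 called), without a filter (3040 of 17015) and with 3 groups (3413 of 13321). Without vehicle PSF-RIP its adjusted p was 0.190 by edgeR. Without No.10-3 replicate 2, the edgeR test called CLK2, with a log2 ratio of 1.09 and an adjusted p of 0.0180. In that fit 4800 of 13170 tested genes were called, 2360 of them higher in PSF-RIP.

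A transcribed pseudogene, CLK2P1, has a row of its own and may share reads with CLK2. It had 3 counts in the deeper input and 11 in the shallower, 27 with vehicle in PSF-RIP, and 15 and 21 with No.10-3. Its share of the counts of both genes was 35.5% in the shallower input (95% Wilson interval 21.1 to 53.1%), against 5.66% (1.94 to 15.4%) in the deeper. In PSF-RIP this share was 6.36% to 11.0%. Hence the shallower input is low for CLK2 and high for CLK2P1. With the counts of both genes added, a setting chosen after seeing the data, the log2 ratio of CLK2 was 0.86 (adjusted p = 0.0992 by edgeR), in the same direction.

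CLK1 had 73 and 40 counts in the deeper and shallower inputs, 373 in vehicle PSF-RIP, and 147 and 430 in No.10-3 replicates 1 and 2. As scaled CPM these were 47.0 and 35.6 in input, 88.9 with vehicle, and 54.4 and 62.1 with No.10-3. Vehicle stood well above the rest, and No.10-3 replicate 1 was only 1.16-fold above the deeper input, so the groups were separate by a small gap. The mean was 41.3 ± 8.09 in input (SD, n = 2) and 68.5 ± 18.1 in PSF-RIP (SD, n = 3). The log2 ratio of 0.72 (SE 0.37) did not pass the test (adjusted p = 0.164 by edgeR, higher in 3 of 3 PSF-RIP libraries).

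CLK4, the paralog of CLK1, was the least abundant member, with 19 and 14 counts in the inputs, 78 in vehicle PSF-RIP, and 18 and 107 in No.10-3 replicates 1 and 2. Its scaled CPM was 12.2 in the deeper input and 12.4 in the shallower. The PSF-RIP values were 6.66 and 15.4 in No.10-3 replicates 1 and 2, against 18.6 in vehicle cells. Replicate 1 thus fell below both inputs and the other 2 PSF-RIP libraries above them, so the groups overlapped. The log2 ratio was 0.16 (SE 0.47, adjusted p = 0.835 by edgeR). With 14 to 19 input counts (95% Poisson intervals 7.65 to 23.5 and 11.4 to 29.7), only a difference well beyond this SE could have been called at this depth.

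**Figure D1:**
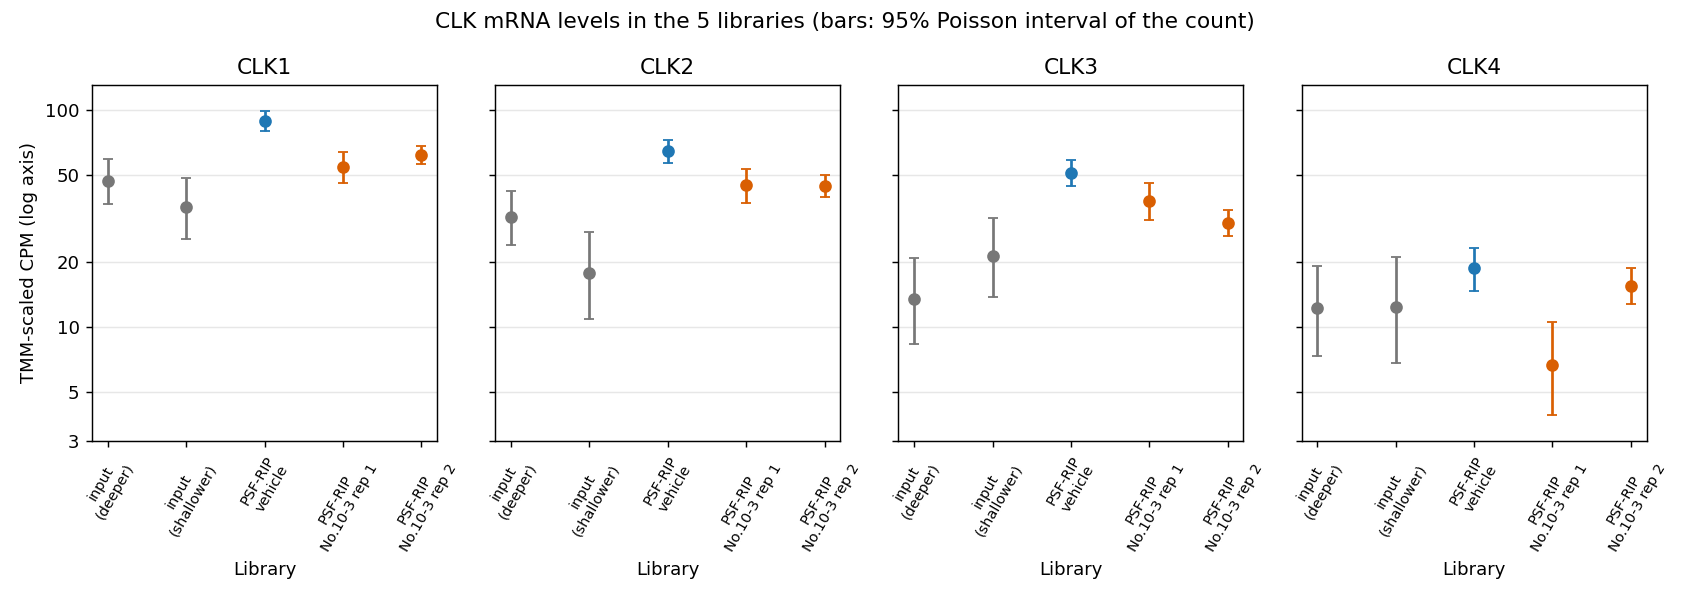
Scaled CPM (log axis) of each CLK mRNA in the 5 libraries, with 95% Poisson intervals of the count. For CLK1, CLK2 and CLK3 the 3 PSF-RIP points lie above both input points, while CLK4 of No.10-3 replicate 1, at 6.66, lies below its inputs at 12.2 and 12.4.

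Set against all tested genes, the order of the log2 ratios was CLK3, CLK2, CLK1 and CLK4. The median of all tested genes was 0.08, and the members lay above it by 1.12, 0.93, 0.64 and 0.08. Their percentiles among the tested genes were 85.7, 81.0, 72.0 and 52.7. CLK3, CLK2 and CLK1 each lay within 1 SE of the next, while CLK1 and CLK4 lay further apart than the SE of either, a difference that was not tested. When library totals alone set the scale, the median of all tested genes moved by 2.34 to 2.42, and all 4 members were called, beside 11662 genes in all. Relative to that median the members stood at 1.13, 0.94, 0.66 and 0.10 in the same order. A change of scale moves all genes by nearly the same amount, so this likeness follows from the change itself.

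**Figure D2:**
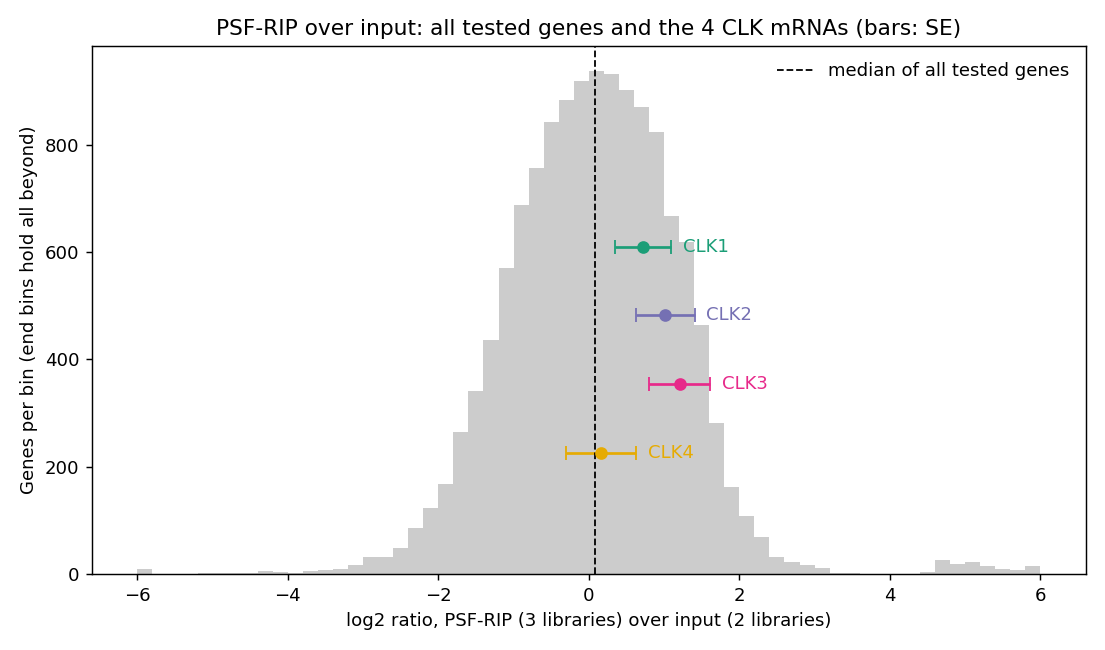
Histogram of the log2 ratio of PSF-RIP over input for 13321 tested genes, with the 4 CLK mRNAs and their SE drawn as points at arbitrary heights and the median of all tested genes as a dashed line. CLK3 at 1.21, CLK2 at 1.02 and CLK1 at 0.72 lie to the right of the median and CLK4 at 0.16 close to it.

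Shares of each member among the counts of all 4 within a library do not depend on any scaling between libraries. CLK1 supplied 44.8% and 40.8% of the CLK counts of the deeper and shallower inputs, 39.9% with vehicle in PSF-RIP, and 37.8% and 40.8% with No.10-3. CLK2 supplied 30.7% and 20.4% in the inputs and 28.8% to 31.1% in PSF-RIP. CLK3 supplied 12.9% and 24.5% in the inputs and 19.7% to 26.5% in PSF-RIP. CLK4 supplied 11.7% and 14.3% in the inputs (95% Wilson intervals 7.59 to 17.5% and 8.70 to 22.6%), and 8.33% in vehicle PSF-RIP (6.73 to 10.3%). Its shares in No.10-3 replicates 1 and 2 were 4.63% (2.95 to 7.20%) and 10.2% (8.47 to 12.1%). The CLK4 share was lower in each PSF-RIP library than in either input, with a difference of the means of -5.27 percentage points. It reached an exact two-sided permutation p of 0.200, the smallest that 3 against 2 libraries allow (adjusted p = 0.400 over the 4 members), so no share could pass a threshold of 0.05. The CLK1 share, with a difference of -3.32 points, gave the same p, with 40.8% in both the shallower input and replicate 2 after rounding. For CLK2 and CLK3 1 input lay below all PSF-RIP values and the other among them (exact permutation p = 0.600 each), and the sign of each difference depended on 1 input. Without the deeper input CLK3 had a difference of -1.43 points against 4.37 with all libraries, and without the shallower input CLK2 had -0.92 against 4.21.

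**Figure D3:**
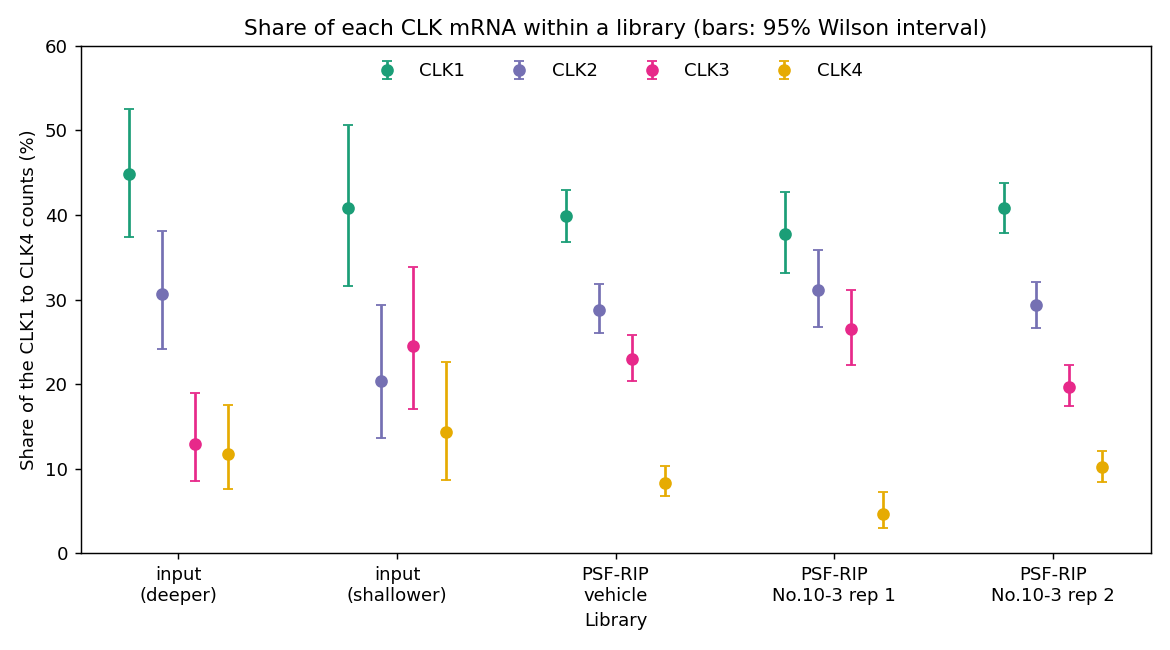
Share of CLK1, CLK2, CLK3 and CLK4 in their summed counts in each library, in percent, with 95% Wilson intervals. CLK4 takes 11.7% and 14.3% in the inputs and 4.63% to 10.2% in PSF-RIP, while the inputs differ most from each other at CLK2 and CLK3.

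Levels of different members were compared per length, as scaled CPM per kilobase. In PSF-RIP the mean was 24.0 ± 5.31 for CLK2, 18.0 ± 4.78 for CLK1, 14.5 ± 3.89 for CLK3 and 5.41 ± 2.47 for CLK4 (SD, n = 3). Within each PSF-RIP library CLK2 lay above CLK1. CLK1 lay above CLK3 by more than counting error with vehicle and in No.10-3 replicate 2, but their ratio was 1.03 in replicate 1 (95% exact interval 0.799 to 1.34), which does not separate them. Over the PSF-RIP libraries the range of CLK1 (14.3 to 23.4) overlapped those of CLK2 (20.9 to 30.1) and CLK3 (10.9 to 18.6). The ranges of CLK2 and CLK3 did not overlap. CLK4 was lowest in each PSF-RIP library. In input the means were 11.7 ± 4.77 for CLK2, 10.9 ± 2.13 for CLK1, 6.34 ± 2.01 for CLK3 and 4.92 ± 0.0606 for CLK4 (SD, n = 2), and the ranges of CLK2 and CLK1 overlapped, as did those of CLK3 and CLK4. The per-length ratio of CLK1 to CLK4 within a library was 2.54 in the deeper input (95% exact interval 1.52 to 4.46) and 1.89 in the shallower (1.01 to 3.76). In vehicle PSF-RIP this ratio was 3.16 (2.47 to 4.09), and in No.10-3 replicates 1 and 2 it was 5.40 (3.30 to 9.36) and 2.66 (2.14 to 3.31). CLK4 was thus the scarcer paralog throughout, most of all in replicate 1.

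With No.10-3 the values of all 4 members in PSF-RIP were below those with vehicle, and none passed the test. This comparison rests on 2 libraries against 1, and the spread comes from the No.10-3 pair alone. CLK1 stood at 0.612 of vehicle in replicate 1 (95% exact interval 0.502 to 0.742, counting error only) and at 0.698 in replicate 2 (0.606 to 0.804). CLK2 stood at 0.695 (0.556 to 0.865) and 0.693 (0.587 to 0.819). CLK3 stood at 0.743 (0.582 to 0.944) and 0.586 (0.482 to 0.712). For these members both replicates lay below vehicle by more than counting error. CLK4 stood at 0.358 of vehicle in replicate 1 (0.202 to 0.604) but at 0.831 in replicate 2 (0.615 to 1.13), and the replicates differed 2.32-fold from each other (1.40 to 4.06). The fall of CLK4 below vehicle is therefore mostly a value of replicate 1, whose 18 counts are the lowest of any member in PSF-RIP.

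The fitted log2 changes were -0.61 for CLK1 (SE 0.55), -0.53 for CLK2 (SE 0.55), -0.60 for CLK3 (SE 0.56) and -0.71 for CLK4 (SE 0.61), each with an adjusted p of 0.998 by edgeR. Their percentiles among 13766 tested genes were 14.8, 18.0, 15.4 and 11.4. The edgeR test called 0% of the genes in this comparison (563 at an unadjusted p under 0.05), and DESeq2 called 0 as well (123 at an unadjusted p under 0.05). Both No.10-3 libraries lay below vehicle for 32.4% of the tested genes and above it for 33.2%. All 4 members were in the former class, and both ratios of each share the single vehicle library. Since both inputs form 1 reference, the change in the ratio over input is the same number as the change between PSF-RIP libraries. Whether less CLK mRNA in the cells or less recovery by PSF accompanied it cannot be told apart here.

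**Figure D4:**
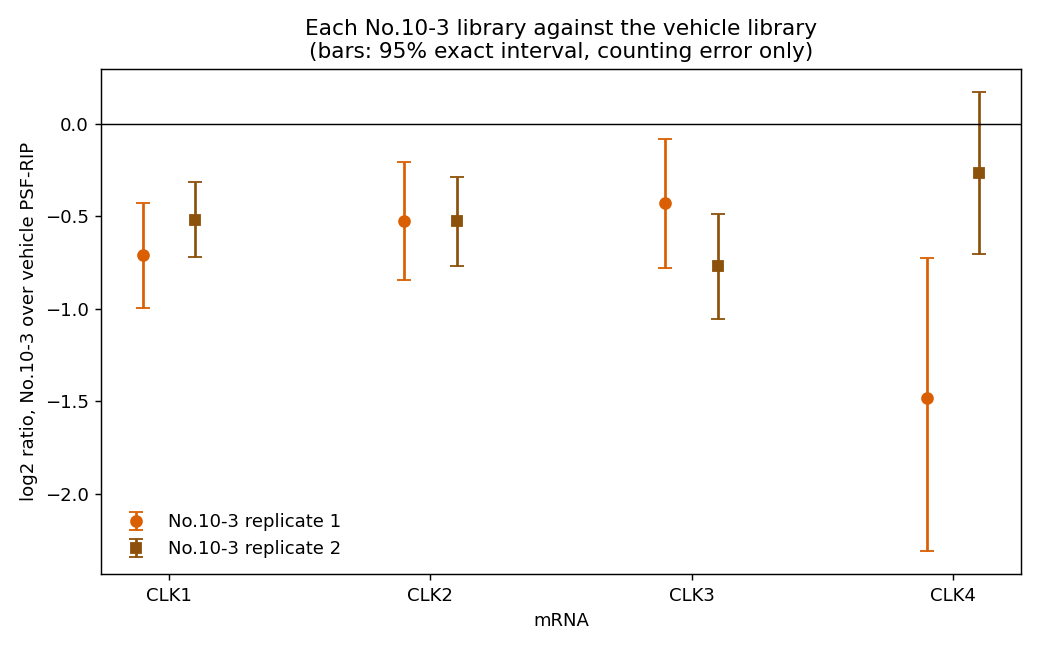
Log2 ratio of each No.10-3 PSF-RIP library over the vehicle PSF-RIP library for the 4 CLK mRNAs, with 95% exact intervals that cover counting error only. All points lie below 0, and the 2 replicates differ most for CLK4.

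SR proteins are the substrates of the CLKs. Of 14 SR protein genes listed, 13 were tested and 0 were called in PSF-RIP over input by edgeR, beside 20.4% of all tested genes. The log2 ratio was above 0 for 7 SR protein genes and below 0 for 6. Their median log2 ratio was 0.18, against 0.08 for all tested genes. SRSF5, an SR protein gene whose transcript also keeps introns, was highest at 0.85 (SE 0.38, adjusted p = 0.107 by edgeR). SRSF8, which arose by retroposition, was lowest at -0.90 (SE 0.34, adjusted p = 0.0626 by edgeR). TRA2A and TRA2B, splicing activators related to SR proteins, stood at 0.18 and -0.18. With No.10-3, the SR protein genes had a median log2 change of -0.37 against vehicle, beside 0.04 for all tested genes. Of the 13, 11 were below 0 and 0 were called, and the median was -0.15 without replicate 1.

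Among 14 other kinases of SR proteins and splicing factors, 13 were tested and 1 was called, beside 20.4% of all tested genes. DYRK1B, a kinase related to the CLKs, was that gene, at 15.8 ± 5.94 scaled CPM in input (SD, n = 2) and 37.9 ± 12.2 in PSF-RIP (SD, n = 3), with a log2 ratio of 1.23 (SE 0.43, adjusted p = 0.0420 by edgeR). The call is narrow: 0 genes of the list were called by DESeq2, with a minimum of 5 CPM, without vehicle PSF-RIP or without No.10-3 replicate 1. Of all tested genes, 2382 of 13321, 2569 of 10923, 1405 of 13149 and 1675 of 13210 were called in these settings, in that order. CLK3 was lost in the same settings except the minimum of 5 CPM, where its call held (adjusted p = 0.0469 by edgeR). The cytoplasmic SR protein kinases SRPK1 and SRPK2 stood at -0.61 and -0.15, and the list had a median of -0.01, which ranged from -0.30 to 0.10 with 1 library left out. SRPK1 and SRPK2 mRNAs thus lay below or near input, and neither was called. Of the CLK mRNAs, CLK1, CLK2 and CLK3 lay above input and CLK4 near it at 0.16, with only CLK3 called. A difference between these kinases was not tested. With No.10-3 this list had a median log2 change of 0.43 against vehicle, and 0 were called.

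Of 6 genes of phosphatases that act on SR proteins, 2 were called, both lower in PSF-RIP than in input, beside 10.4% of all tested genes called lower. Without vehicle PSF-RIP 1 of the list was called, beside 1405 of 13149 tested genes, and without No.10-3 replicate 1 also 1, beside 1675 of 13210. Without the shallower input, which leaves 1 input, the list's median log2 ratio was -0.39. The median log2 ratio was -0.47, which with library totals alone turned to 1.90, still below the 2.42 of all tested genes. PPP1CB and PPP1CC, catalytic subunits of protein phosphatase 1, both had log2 ratios of -1.42 (SE 0.39 and 0.37, adjusted p = 0.0130 and 0.00981 by edgeR). PPP1CB stood at 339 ± 56.6 scaled CPM in input (SD, n = 2) and 126 ± 50.6 in PSF-RIP (SD, n = 3), and PPP1CC at 131 ± 8.04 and 48.7 ± 18.9. PPP1CA, the remaining catalytic subunit of that enzyme, was not called, at 0.38.

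Genes of nuclear speckle and RS-domain proteins had a median log2 ratio of 0.37 over 18 tested, with 14 above 0. The test called 2 of them, both higher in PSF-RIP, beside 10.0% of all tested genes called higher. The list had 0 calls without vehicle PSF-RIP, beside 576 of 13149 tested genes called higher. It also had 0 without No.10-3 replicate 1, beside 756 of 13210 called higher. With 1 input left, its median was 0.51 without the deeper and 0.25 without the shallower. ACIN1, a factor that joins spliced mRNPs, had 1.15 (SE 0.39, adjusted p = 0.0402 by edgeR), and RBM5, a splicing regulator, had 1.13 (SE 0.39, adjusted p = 0.0418 by edgeR). SRRM2, a scaffold of nuclear speckles, stood at 1.04 (adjusted p = 0.0642 by edgeR), and RNPS1 was lowest at -0.28. With No.10-3 the median log2 change of the list was -0.35 against vehicle, beside 0.04 for all tested genes, and it was 0.02 without replicate 1. Of the 18, 15 were below 0 and 0 were called.

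Of other transcripts known for detained or retained introns, 10 were tested and 3 were called, 2 higher and 1 lower. Of all tested genes 20.4% were called, 10.0% higher and 10.4% lower. The listed transcripts had a median log2 ratio of 0.73 over input, beside 0.87 for the 4 CLK mRNAs and 0.08 for all tested genes. Of the 10, 9 were above 0. The median was 0.42 without vehicle PSF-RIP, with 0 called beside 1405 of 13149 tested genes. Without No.10-3 replicate 1, 1 was called, beside 1675 of 13210. With 1 input left, the median was 0.45 without the shallower and 0.89 without the deeper. NXF1, the mRNA export receptor, had 1.51 (SE 0.41, adjusted p = 0.0122 by edgeR), with 45.7 ± 15.5 scaled CPM in input (SD, n = 2) and 131 ± 44.2 in PSF-RIP (SD, n = 3). CCNL2, a cyclin of nuclear speckles, had 1.17 (SE 0.40, adjusted p = 0.0400 by edgeR). MDM2, the ubiquitin ligase of p53, was called in the other direction at -1.19 (SE 0.39, adjusted p = 0.0334 by edgeR). MAT2A, which makes S-adenosylmethionine, and OGT, which adds GlcNAc to proteins, stood at 0.88 and 0.61 and were not called. With No.10-3 the median log2 change of this list was -0.69 against vehicle, beside 0.04 for all tested genes, with 9 of 10 below 0 and 0 called. Of the members best known for detained introns, CLK1 (0.7246) lay at this list's median over input (0.7253) and CLK4, at 0.16, below it. CLK2 and CLK3 lay above it.

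**Figure D5:**
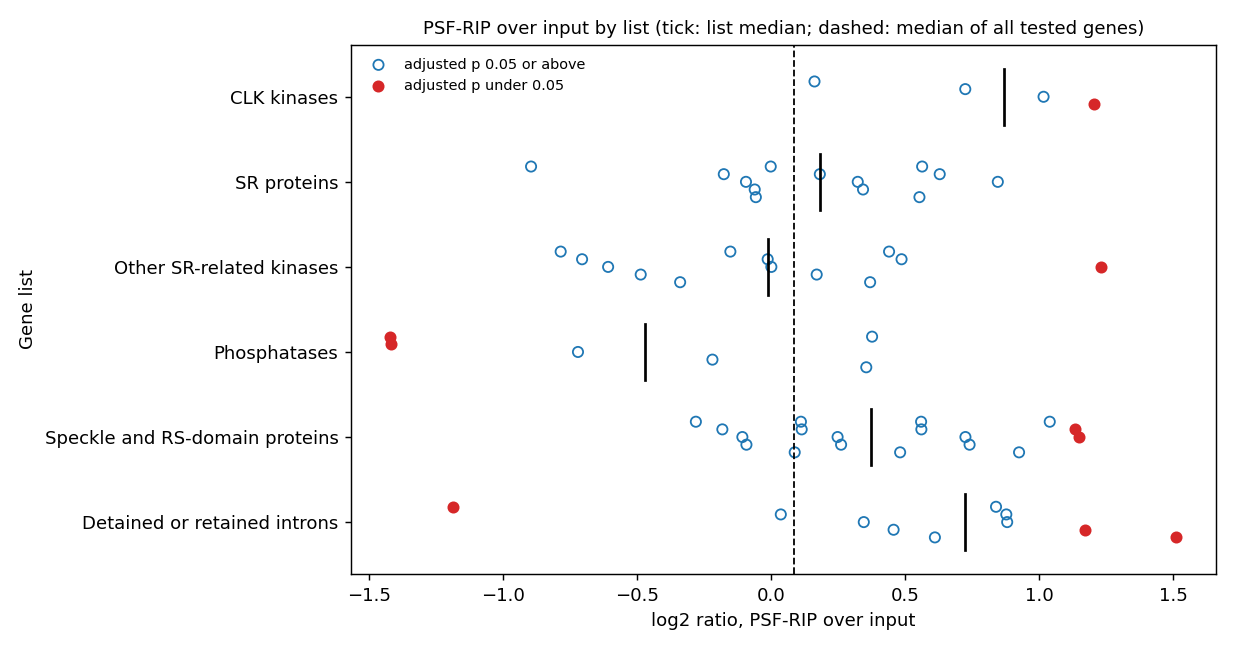
Log2 ratio of PSF-RIP over input for each tested gene of 6 lists, with filled points where edgeR's adjusted p was under 0.05, a vertical tick at each list's median and a dashed line at the median of all tested genes. The CLK kinases (median 0.87) and the genes with detained or retained introns (0.73) lie to the right, and the phosphatases (-0.47) to the left.

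Genes with the profile most like each member were found over the 5 libraries, by the root mean square (RMS) difference of log2(scaled CPM + 1) centred on each gene's mean, among 8327 genes with a mean of at least 10 scaled CPM. For CLK1 these were SF3B1, a subunit of the U2 snRNP (RMS difference 0.07), GIGYF2 (0.07) and DDX56 (0.08). For CLK2 they were MORC2 (0.04), SHPK (0.06) and BSDC1 (0.07). For CLK3 they were ZNF496 (0.05), PFKFB4 (0.05) and ARMC5 (0.07), and for CLK4 CLNS1A (0.06), GTF2H3 (0.12) and DZIP3 (0.12). These pairs were picked as the nearest, so a larger difference between members follows from the choice. Among the members, CLK1 and CLK2 were the closest at 0.23. In nearness among the 8327 genes, CLK2 ranked 419 for CLK1 and CLK1 ranked 398 for CLK2. CLK3 and CLK4 were the farthest apart at 0.74, where CLK4 ranked 4468 for CLK3 and CLK3 ranked 4937 for CLK4. The paralogs CLK1 and CLK4 differed by 0.47. Each profile rests on the same 5 libraries, and such likeness is a description only.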

How the data were processed

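The authors deposited 1 table that gives gene lengths and, for each gene and library, a raw count and an FPKM. TopHat2 2.1.0, Bowtie2 2.2.6, Bowtie and hg19 are named, without roles, in the submitters' processing notes. The sources used here give no counter, strand setting, annotation or treatment of multiply mapped reads. The deposited FPKM equals count over length and library total within a relative deviation of 5.9e-08 and was used only for that check. The deposited columns for No.10-3 PSF-RIP lack PSF in their names and were assigned because both inputs have columns of their own.

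Counts as deposited were tested with edgeR 4.0.16 (R 4.3.3) by glmQLFit and glmQLFTest with TMM factors, 3 PSF-RIP against 2 input libraries (3 residual degrees of freedom) and 2 No.10-3 against 1 vehicle (1 residual degree of freedom, where the vehicle library is assumed to vary like the pair). The SE is the log2 ratio over the square root of the F statistic. The scripts were tested on simulated data. Intervals (95%) cover counting error only. Biotypes and overlaps came from a GRCh38.p14 RefSeq gene table, matched for 23696 genes by Entrez ID. Overlaps were found from the coordinates of that table, while the processing notes name hg19, and no coordinates are printed. Named were the 4 members, listed genes that were called or at the extremes of their list, other listed genes, and the 3 nearest profiles per member. Members and lists were chosen with earlier results of these data known. DESeq2 1.42.0, other scalings and filters, a design of 3 groups, a replicate block and leaving out libraries were alternatives. Some marker genes are not reported here.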

Additional observations from a re-analysis of the deposited data

How the results depend on the processing

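For PSF-RIP over input, 14 alternatives were run. With library totals only, log2 ratios were 3.07, 3.36, 3.55 and 2.52 for CLK1 to CLK4, all called, with 11662 genes called in all. CLK2 was called with small and mitochondrial RNAs left out (1.03), without a filter (1.06) and with 3 groups (1.08). Genes called in all were 3077, 3040 and 3413 in these settings. CLK3 was not called by DESeq2 (1.17). Without vehicle PSF-RIP, 1405 genes were called, CLK3 was not (0.97), and CLK4 reversed to -0.12. CLK1 stood at 0.48 and CLK2 at 0.81 in that fit. Leaving out 1 library at a time gave 0.55 to 0.95 for CLK1, 0.67 to 1.53 for CLK2, 0.90 to 1.56 for CLK3 and 0.07 to 0.46 for CLK4, and 602 (without the shallower input) to 4800 (without No.10-3 replicate 2) called genes. CLK3 was not called without either input or without No.10-3 replicate 1, and CLK2 was called without No.10-3 replicate 2. Fits with a library left out hold fewer samples. The cause of the other changes was not tested. With library totals only, all 6 other list medians were above 0, from 1.66 for the nuclear long noncoding RNAs to 3.08 for the intron list.

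For No.10-3 against vehicle no alternative with a test called a gene or a member. With 1 No.10-3 library left, a value with no test, CLK1 ranged from -0.71 to -0.52, CLK2 from -0.53 to -0.52, CLK3 from -0.78 to -0.42 and CLK4 from -1.47 to -0.27. Share differences with 1 library left out ranged from -5.31 to -1.34 points for CLK1, -0.92 to 9.35 for CLK2, -1.43 to 10.18 for CLK3 and -6.58 to -3.73 for CLK4.

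The names of 1 input column (the shallower) and 1 No.10-3 PSF-RIP column (replicate 2) share the number 2, and no source used here says what it marks. Their deviations from the group means did not go together (correlation -0.10 across 8394 genes, which are not independent), so the libraries were not treated as paired. A fit with that number as a replicate block gave 0.69, 0.99, 1.16 and 0.18 for CLK1 to CLK4 (adjusted p = 0.166, 0.0521, 0.0385 and 0.804 by edgeR), with 3021 genes called, and changed no call of a member. Input depth limits the ratios of CLK2, CLK3 and CLK4, with 14 to 24 counts in 1 or both inputs.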

Other observations

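CLASRP, an RS-domain protein that associates with CLK4, was in no list and was looked at after its values were seen. It had 5 and 4 counts in the deeper and shallower inputs, and 76, 36 and 72 in PSF-RIP with vehicle and No.10-3 replicates 1 and 2. Its log2 ratio over input was 2.03 (SE 0.56, adjusted p = 0.0137 by edgeR, higher in 3 of 3 PSF-RIP libraries), while CLK4 stood at 0.16. With No.10-3 it had a log2 change of -0.63 against vehicle (adjusted p = 0.998 by edgeR).

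Of the nuclear long noncoding RNAs listed, all 4 tested had log2 ratios below 0, with a median of -0.69 (-0.99 to -0.27 with 1 library left out). By edgeR 0 were called, beside 20.4% of all tested genes, against 1 by DESeq2. MALAT1 stood at -0.18, with 10974 scaled CPM in No.10-3 replicate 2 above both inputs, at 8511 and 6114. NEAT1, the scaffold of paraspeckles, was lowest at -1.12 (adjusted p = 0.0572 by edgeR).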
